A study of Mus musculus with 8 samples.

Results

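Adhesion G protein-coupled receptors (adhesion GPCRs) were followed in microglia sorted from the brain at postnatal day 60. There were 4 mutant and 4 control libraries, taken as 1 mouse each. The set holds 7 rows of the deposited count table, chosen by gene symbol and including *Adgrg1*, *Adgre1*, *Adgre4*, *Adgre5*, *Adgrl2* and *Adgrg3*, out of 55573 genes listed and 20153 genes tested. All 7 passed the filter on low counts. The mutants were *Smad2/3* fl/fl;*Cx3cr1*Cre mice, in which Cre expressed from the *Cx3cr1* locus recombines floxed *Smad2* and *Smad3* in microglia and related macrophages. The controls are called wild-type in the sample labels, whereas the study's methods describe controls that as a rule had Cre together with 1 floxed allele, so the alleles of each control are not known here. The methods describe a Percoll gradient and sorting of tdTomato+ cells with CD45 and CD11b, and both sources describe unstranded libraries, although they name different kits and read layouts.

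Adhesion GPCRs are cell surface receptors with a long extracellular part joined to a bundle of membrane-spanning helices. Most are cut during synthesis at the GPCR proteolysis site, which lies in the GAIN domain next to the membrane, and the new end that is exposed when the outer fragment is pulled away can act as a tethered agonist. *Adgrg1* encodes GPR56, which is a defining receptor of microglia and couples to G12/13 proteins, *Adgre1* encodes F4/80, the classical surface marker of mouse macrophages, and *Adgre5* encodes CD97, a leukocyte receptor that binds CD55. *Adgre4* encodes FIRE, a receptor of myeloid cells. *Adgrg3* encodes GPR97, best known from granulocytes, and *Adgrl2* encodes latrophilin-2, a receptor for teneurins and FLRT proteins at synapses.

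The cleavage site was the feature used to set the receptors side by side at the sequence level. The stretches below are the 30 coding bases around the place of that site. They are read 5′ to 3′ from the longest open reading frame of a gene in the GENCODE M21 transcripts. The 9 bases in capitals are the codons at the place of the triplet within which most adhesion GPCRs are cut. Cutting itself was not measured.
*Adgrg1*: tgcctgtgcaacCACCTGACCtactttgca
*Adgre5*: tgccactgcaacCACCTGACCagctttgcc
*Adgre4*: tgcaagtgtttcCACCTGTCCagctttgct
*Adgrl2*: tgcgcttgcagcCACCTAACCaattttgct
*Adgrg3*: tgccgttgcgacCACTTGACCttcttcgcc
*Adgre1*: tgcagctgtaacCGGATGGCAaacttggct
In all but the last of these stretches the capitals encode the consensus triplet, with different codons in several of them. In *Adgre1*, the last, the bases at the same place encode another triplet. In every gene the place was found by a pattern of the residues on either side, so their likeness is no result. No 50-base word in the transcripts of any of the 7 genes was shared with another of the 7, so exact matches of that length separate the receptors from each other.

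The libraries held 35639502 to 41946479 counts. *Smad3* fell from 39.5, 56.9, 49 and 49.2 CPM in the controls to 15.1, 9.61, 35.1 and 17.5 CPM in the mutants (log2 fold change -1.33 ± 0.36 SE, edgeR adjusted p = 0.0429), a call that was lost whenever a mouse other than KO3 was left out (adjusted p from 0.0565 to 0.110). *Smad2* had 62.7 to 92.4 CPM in controls and 42.7 to 75.9 CPM in mutants (log2 fold change -0.34 ± 0.22 SE, edgeR adjusted p = 0.340). *Xist* was at 99.5 to 183 CPM in controls and 0.0276 to 0.562 CPM in mutants, and the Y-linked genes *Ddx3y*, *Eif2s3y* and *Uty* were higher in every mutant than in every control, as was *Kdm5d*, which was not tested, so for every receptor the difference between genotypes cannot be told apart from one between sexes.

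Of the 7 receptors, 1 was lower in mutants, 2 were higher and 4 did not pass the test (edgeR quasi-likelihood test, Benjamini-Hochberg adjusted p under 0.05). Over all genes tested 12.3% passed, 7.97% lower and 4.36% higher. The groups did not overlap for the same 3 receptors, as was the case for 22.1% of all genes tested. The median log2 fold change of mutants over controls was -0.37 over the 7 receptors and 0.01 over all genes tested. In bulk RNA of this kind, fewer cells of a type and less RNA per cell cannot be told apart.

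*Adgrg1* (ENSMUSG00000031785, chr8:94974751-95014217, + strand, GRCm38) was the receptor that was lower. Its level as CPM, the counts on the gene relative to the library's total after TMM scaling, was 938, 1031, 1413 and 996 in controls WT1 to WT4 and 15.9, 15.6, 17.3 and 10.5 in mutants KO1 to KO4. Every mutant lay far below every control, and the mutants kept 1.45%, 1.42%, 1.58% and 0.958% of the control mean. The fall was 73.9-fold (log2 fold change -6.21 ± 0.26 SE, edgeR adjusted p = 9.8e-06), and 61 of the 20153 genes tested had a more negative log2 fold change. In each mutant library 380 to 720 reads were still counted on *Adgrg1*, with KO1, KO2 and KO3 at levels near each other. Leaving out any 1 mouse gave log2 fold changes between -6.29 and -6.06.

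*Adgre1* (ENSMUSG00000004730, chr17:57358691-57483527, + strand) was higher in mutants by a smaller step. Its CPM was 395, 493, 587 and 442 in the controls and 868, 628, 1062 and 835 in the mutants. The highest control, WT3, lay just under the lowest mutant, KO2. The difference was 1.77-fold (log2 fold change 0.82 ± 0.20 SE, edgeR adjusted p = 0.0286). This call was close to the threshold, and it was lost when WT1, WT2, WT4, KO1, KO3 or KO4 was left out, with adjusted p-values of 0.0645, 0.0764, 0.0527, 0.0537, 0.0676 and 0.0607, while the log2 fold change stayed between 0.70 and 0.94 over all 8 fits that left out a mouse.

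*Adgre5* (ENSMUSG00000002885, chr8:83723251-83741326, - strand) showed the larger rise. Its CPM was 36, 48.9, 25.8 and 25.7 in the controls and 139, 109, 160.3 and 108 in the mutants, so that the lowest mutant was above 2 times the highest control. The rise was 3.79-fold (log2 fold change 1.92 ± 0.25 SE, edgeR adjusted p = 0.00146), and it passed the test whichever mouse was left out. Of the annotated exon bases of *Adgre5*, 23.8% overlap exons of *Ddx39*, an RNA helicase gene on the opposite strand, and unstranded reads there cannot be assigned to a strand. *Ddx39* itself had a CPM of 38.1 to 59.3 in controls and 32 to 45.5 in mutants, with a log2 fold change of -0.37 ± 0.19 SE that did not pass the test (edgeR adjusted p = 0.241).

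Lists of markers of microglia and of other cell types are given beside these 3 receptors. Of 9 microglia markers, 8 were lower and 1 did not pass, with a summed level of 31324 to 47722 CPM in controls and 5693 to 7978 CPM in mutants, the direction of *Adgrg1*. *Cx3cr1*, 1 of these 8, is also the locus of Cre in the mutants, and the part of that allele in its fall was not tested. The microglia list had the largest sum of the lists in every mutant library. The lists differ in their genes, and such sums do not measure cell numbers. Among the 9 microglia markers in mutants, *Csf1r* and *Cx3cr1* were highest, at 3248 and 1321 CPM on average. *P2ry12*, *Siglech* and *Sall1* were lowest, at 169, 20.9 and 2.83 CPM. Of 6 markers of border-associated macrophages, 4 were higher, with a sum of 47.5 to 93.2 CPM in controls and 1598 to 2485 CPM in mutants, the direction of *Adgre1* and *Adgre5*. The study reports that microglia of *Itgb8* mutants express such markers. Border-associated macrophages and microglia that express these genes therefore cannot be told apart here. Of 7 T and NK cell markers, 3 were higher, with sums of 14.4 to 51.5 and 63.9 to 151 CPM, which was also the direction of *Adgre5*, a leukocyte gene. Of 7 neutrophil markers, 1 was lower, with sums of 532 to 2326 and 254 to 809 CPM. Monocyte, B cell, endothelial, neuronal and oligodendrocyte markers gave 0 calls. Of 4 astrocyte markers 1 was lower, *Slc1a3*. *Gfap*, *Aqp4* and *Aldh1l1* had log2 fold changes of 0.65, 0.73 and 0.27 and did not pass the test. The share that passed over all genes tested was 12.3%, with 7.97% lower and 4.36% higher. With so few markers per list, 0 calls or 1 call is no result about a cell type. No marker was at 0 in all 8 libraries. The part of these cell types in the levels of the receptors was not tested.

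**Figure D1:**
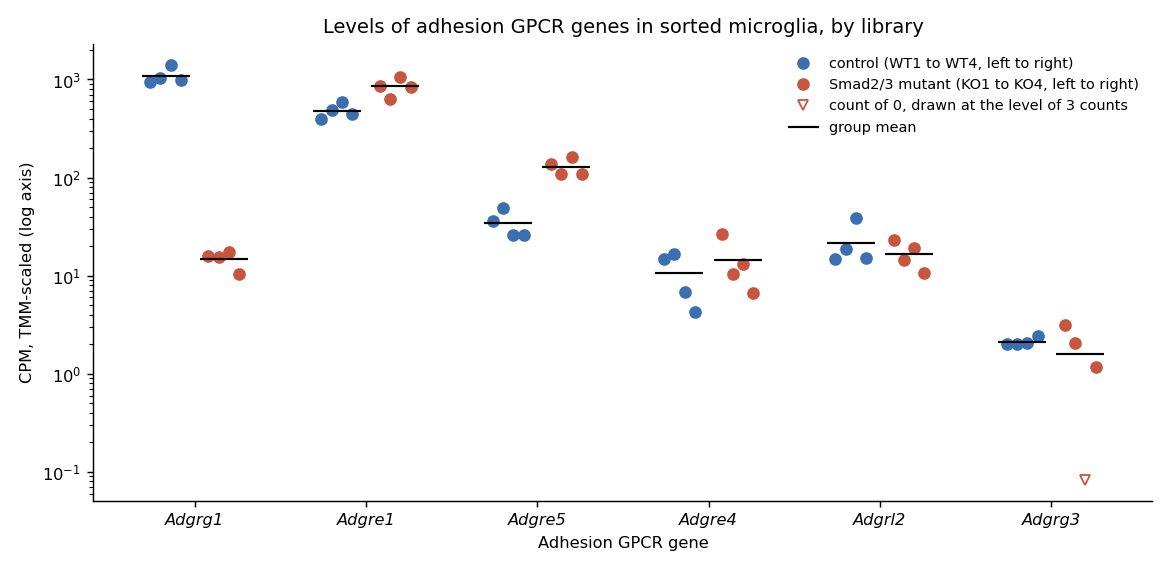
CPM of receptor genes in each library on a log axis, with controls in blue, mutants in red and the group mean as a black bar. *Adgrg1* runs from 938 to 1413 in controls and from 10.5 to 17.3 in mutants, *Adgre1* and *Adgre5* lie higher in every mutant than in every control, and *Adgre4*, *Adgrl2* and *Adgrg3* overlap between groups. CPM is not divided by gene length, so heights compare libraries within a gene.

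*Adgre4*, *Adgrl2* and *Adgrg3* did not pass the test. They stayed at or under 38.4 CPM in every library, and within the mutants each of them varied by more than 2 times. *Adgre4* (chr17:55749984-55853662, + strand) had a CPM of 14.8, 16.7, 6.85 and 4.25 in controls and 26.9, 10.5, 13.3 and 6.65 in mutants (log2 fold change 0.43 ± 0.53 SE, edgeR adjusted p = 0.650). *Adgrl2* (chr3:148815583-148990555, - strand) had a CPM of 14.7, 18.5, 38.4 and 15 in controls and 22.9, 14.3, 19.3 and 10.7 in mutants (log2 fold change -0.37 ± 0.37 SE, edgeR adjusted p = 0.567). For both genes 1 library set the sign of the difference, which became -0.07 for *Adgre4* without KO1 and 0.06 for *Adgrl2* without WT3.

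*Adgrg3* (chr8:95017692-95045250, + strand) had few counts, with a CPM of 2.02, 2, 2.04 and 2.45 in controls and 3.17, 2.07, 0 and 1.16 in mutants. The count of 0 in KO3 allows a level of up to 0.0826 CPM (3 counts), and without KO3 the log2 fold change moved from -0.41 ± 1.03 SE (edgeR adjusted p = 0.842) to 0.0044. At these spreads differences of the sizes seen were not detectable in the 3 genes.

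Levels of different genes were compared as CPM per kilobase of annotated exon. On this scale *Adgrg1* stood first in controls at 202 ± 39.8 (SD, n = 4), followed by *Adgre1* at 148 ± 25.4, and the 2 ranges met, with *Adgrg1* from 173 in WT1 upwards and *Adgre1* up to 181 in WT3. Within each control library, however, *Adgrg1* was the higher of the pair. Lower in controls stood *Adgre5* at 9.08 ± 2.93, *Adgre4* at 3.05 ± 1.73, *Adgrl2* at 1.53 ± 0.798 and *Adgrg3* at 0.308 ± 0.0309. In mutants the order per kilobase was *Adgre1* at 262 ± 55, *Adgre5* at 34.4 ± 6.73, *Adgre4* at 4.11 ± 2.52, *Adgrg1* at 2.73 ± 0.548, *Adgrl2* at 1.18 ± 0.38 and *Adgrg3* at 0.232 ± 0.195, where *Adgre4* and *Adgrg1* overlapped. Among the receptors named, *Adgrg1* thus moved from the first place to the fourth.

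The summed level of all 30 adhesion GPCR genes, again as CPM per kilobase, was 331 to 477 in controls and 236 to 396 in mutants, so the 2 groups overlapped in the family's total while its makeup differed. *Adgrg1* gave 52.3%, 50.8%, 54.7% and 54.2% of the sum in the controls and 0.886%, 1.22%, 0.805% and 0.63% in the mutants. *Adgre1* gave 36.9% to 40.7% in controls and 81.1% to 83.9% in mutants, and *Adgre5* gave 1.44% to 3.48% and 9.34% to 12.4%. Since shares add up to a whole, a fall of 1 member raises the shares of the others, and the shares are given as a description.

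**Figure D2:**
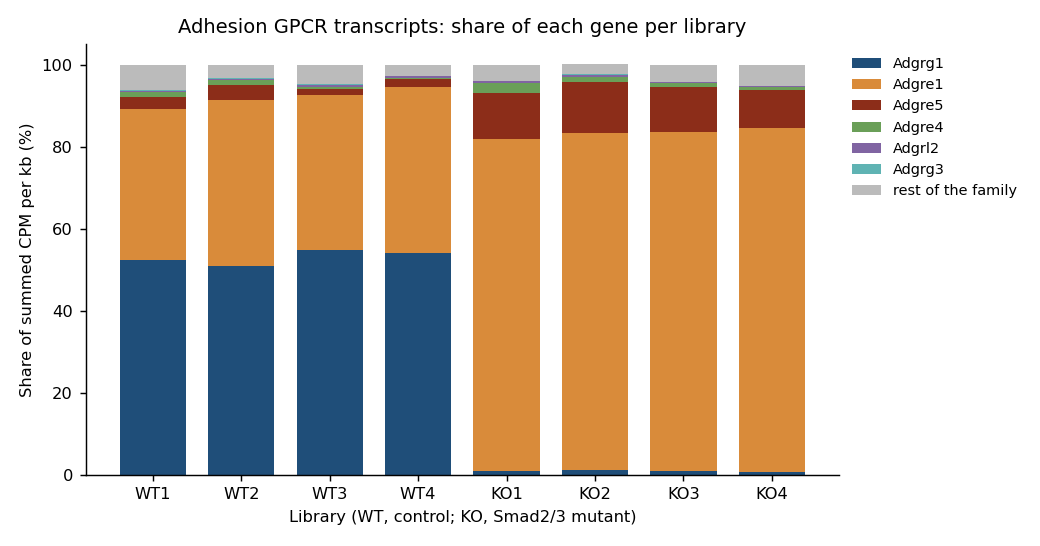
Share of each receptor in the summed CPM per kilobase of the adhesion GPCR family, in percent, for each library, with the rest of the family in grey. *Adgrg1* fills 50.8% to 54.7% of each control bar and at most 1.22% of a mutant bar, where *Adgre1* fills 81.1% to 83.9%.

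Ratios within a library need no scaling between libraries, and 2 of them were computed per kilobase. They were chosen after the values had been seen and are given as a description, with no test. The ratio of *Adgre1* to *Adgrg1* was 0.705, 0.8, 0.696 and 0.743 in the controls and 91.5, 67.5, 103 and 133 in the mutants, so *Adgrg1* was the higher in every control and *Adgre1* in every mutant. The log2 ratio was -0.44 ± 0.09 (SD, n = 4) in controls and 6.58 ± 0.41 in mutants. The ratio of *Adgre5* to *Adgre1* was 0.0787, 0.0855, 0.0379 and 0.05 in the controls and 0.138, 0.15, 0.13 and 0.111 in the mutants. On the log2 scale these were -4.06 ± 0.55 (SD, n = 4) and -2.92 ± 0.18, and every mutant lay above every control.

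*Adgrg1* lies next to *Adgrg3* on chromosome 8, both on the + strand, with a gap of 3.5 kb. *Adgrg3* did not pass the test. Within 250 kb on either side of *Adgrg1*, 14 other genes were tested, and 0 of them passed in either direction. Over all genes tested 12.3% passed, so a count of 0 among 14 is no result about the region. *Ccdc102a* on the upstream side and *Drc7* on the downstream side had log2 fold changes of -0.40 ± 0.32 SE and 0.37 ± 0.31 SE (edgeR adjusted p = 0.461 and 0.485). The 14 genes ran from *Gm45758* at -2.15 ± 1.25 SE (edgeR adjusted p = 0.3) to *Dok4* at 2.16 ± 0.79 SE (edgeR adjusted p = 0.109), both with under 5 CPM on average in either group.

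**Figure D3:**
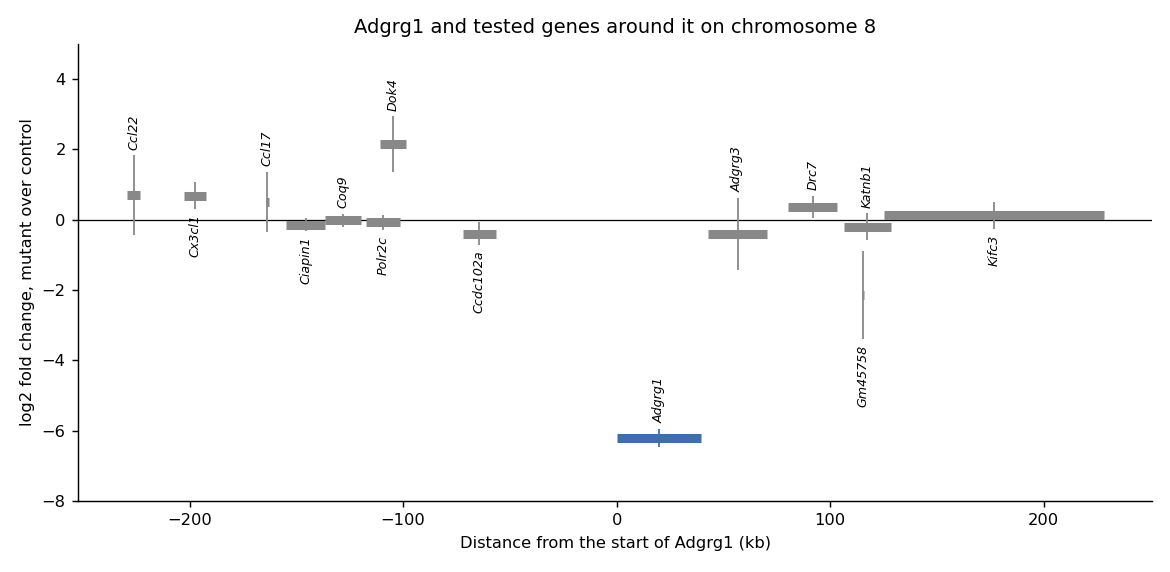
log2 fold change of mutants over controls (vertical axis, whiskers are SE) against distance from the start of *Adgrg1* in kb, for tested genes around it, each drawn over its own length. *Adgrg1* stands at -6.21, and the other genes drawn, in grey, did not pass the test.

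Sequences upstream of the starts of *Adgrg1* and *Adgrg3* are shown because *Adgrg1* changed and its neighbour did not pass the test. They are the RefSeq windows of build GRCm38.p6, up to 250 bases before a start, read 5′ to 3′ on the strand of the gene. The window of the first *Adgrg1* start runs into exons of other *Adgrg1* transcripts and is shortened there, so the bases next to that start are not shown. The shown part still includes some exon bases, and 28 bases of the second window lie in annotated *Adgrg1* exons. Capitals mark the letters CAGAC or their reverse complement GTCTG, the half-site bound by SMAD proteins.
*Adgrg1*, first start (chr8:94976859-94977022, + strand): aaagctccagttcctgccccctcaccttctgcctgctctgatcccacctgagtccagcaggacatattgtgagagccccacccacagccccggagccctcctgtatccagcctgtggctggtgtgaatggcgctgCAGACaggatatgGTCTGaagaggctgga
*Adgrg1*, second start (chr8:94984149-94984398, + strand): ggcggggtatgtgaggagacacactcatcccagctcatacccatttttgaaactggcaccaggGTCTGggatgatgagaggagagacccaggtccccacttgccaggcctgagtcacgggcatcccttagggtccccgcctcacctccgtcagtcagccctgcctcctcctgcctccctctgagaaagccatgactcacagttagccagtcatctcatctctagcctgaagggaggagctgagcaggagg
*Adgrg3* (chr8:95017442-95017691, + strand): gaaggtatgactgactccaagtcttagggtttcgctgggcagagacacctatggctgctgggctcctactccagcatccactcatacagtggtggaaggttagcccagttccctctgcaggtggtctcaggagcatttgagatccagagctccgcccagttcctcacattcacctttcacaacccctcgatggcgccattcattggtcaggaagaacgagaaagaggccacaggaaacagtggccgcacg
The half-site occurred 2 times before the first *Adgrg1* start, 1 time before the second, and not within the window of *Adgrg3*. Of the RefSeq windows of the same 250 bases, 42.2% hold the half-site on 1 strand or the other, so a match is common. The palindrome GTCTAGAC, present in 0.167% of windows, and the letters GAGGAAG with their reverse complement, a core of sites for the macrophage factor PU.1, present in 10.6%, were searched on both strands and did not occur in these windows. The windows of *Adgre4* and *Adgrl2* each held the half-site 1 time. No window was available for *Adgre1* and *Adgre5*, so these receptors were not searched. These are matches of letters and not measured binding.

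The other 23 genes of the family served as a comparison. Of these, 13 did not pass the filter on low counts, 6 of them (*Adgrd1*, *Adgrf1*, *Adgrf2*, *Adgrf4*, *Adgrg4* and *Adgrg7*) with a count of 0 in all 8 libraries, which allows a level of up to 0.0715 to 0.0842 CPM depending on the library (3 counts). The other 10 were tested and 0 of them passed (edgeR, smallest adjusted p = 0.234, with 0 at an unadjusted p under 0.05 and 0 by DESeq2), and their median log2 fold change was 0.45. Over all genes tested 12.3% passed, so a count of 0 among 10 is no result about these genes. DESeq2, which was run without the filter, called *Adgrb3*, a brain angiogenesis inhibitor receptor, lower (adjusted p = 0.00749), at 0.196 to 0.859 CPM in controls and 0 to 0.0828 CPM in mutants. The other 23 genes together gave 0.923% to 2.45% of the family's sum per kilobase in controls and 0.957% to 3.01% in mutants.

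Ligands and membrane partners of these receptors were read from the same fit. Of 16 genes tested, 2 were lower, 0 were higher and 14 did not pass, a share near the 12.3% that passed over all genes tested (7.97% lower), so the count is no result about the list. The 2 genes, *Cd81* and *Cd9*, encode tetraspanins. *Cd81* had a CPM of 1754, 1822, 2474 and 2491 in controls and 786, 711, 755 and 792 in mutants, with no overlap (log2 fold change -1.49 ± 0.17 SE, edgeR adjusted p = 7.8e-04). *Cd9* had a CPM of 758, 752, 1121 and 992 in controls and 277, 363, 352 and 413 in mutants (log2 fold change -1.37 ± 0.20 SE, edgeR adjusted p = 0.00231), and 10.7% of its exon bases overlap an opposite-strand transcript. The falls of both were below that of *Adgrg1* in size.

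The other partners did not pass the test. *Tgm2*, which encodes tissue transglutaminase, a GPR56 ligand, had a CPM of 107 to 144 in controls and 76.5 to 148 in mutants (log2 fold change -0.25 ± 0.21 SE, edgeR adjusted p = 0.485). *Cd55*, the CD97 ligand, had 3.75 to 13.3 and 12.7 to 16.2 (log2 fold change 0.57 ± 0.36 SE, edgeR adjusted p = 0.339). *Col3a1*, the collagen ligand of GPR56, was at most 1.57 CPM in controls and 1.64 CPM in mutants.

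Among 19 genes for G protein subunits and effectors, which carry the signal of the receptors inside the cell, 2 were lower, 0 were higher and 17 did not pass, again near the 12.3% of all genes tested that passed (7.97% lower), so this count is no result about the list either. The 2 genes, *Gna12* and *Gna13*, encode alpha subunits of G proteins. *Gna12* had a CPM of 389, 425, 539.6 and 352 in controls and 282, 159, 232 and 123 in mutants (log2 fold change -1.10 ± 0.27 SE, edgeR adjusted p = 0.0296), and 13.3% of its exon bases overlap *Amz1* on the opposite strand. *Gna13* had a CPM of 163, 179, 240.1 and 136 in controls and 80, 91.3, 104 and 131 in mutants (log2 fold change -0.82 ± 0.22 SE, edgeR adjusted p = 0.0408), so that KO4 lay just under the lowest control. Both calls were near the threshold. That of *Gna12* was lost without WT2, WT3, KO2 or KO4 (adjusted p = 0.0714, 0.0795, 0.0851 and 0.0536), and that of *Gna13* without WT1, WT2, WT3, KO1, KO2 or KO3 (adjusted p = 0.0598, 0.0937, 0.0945, 0.0778, 0.108 and 0.0795).

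**Figure D4:**
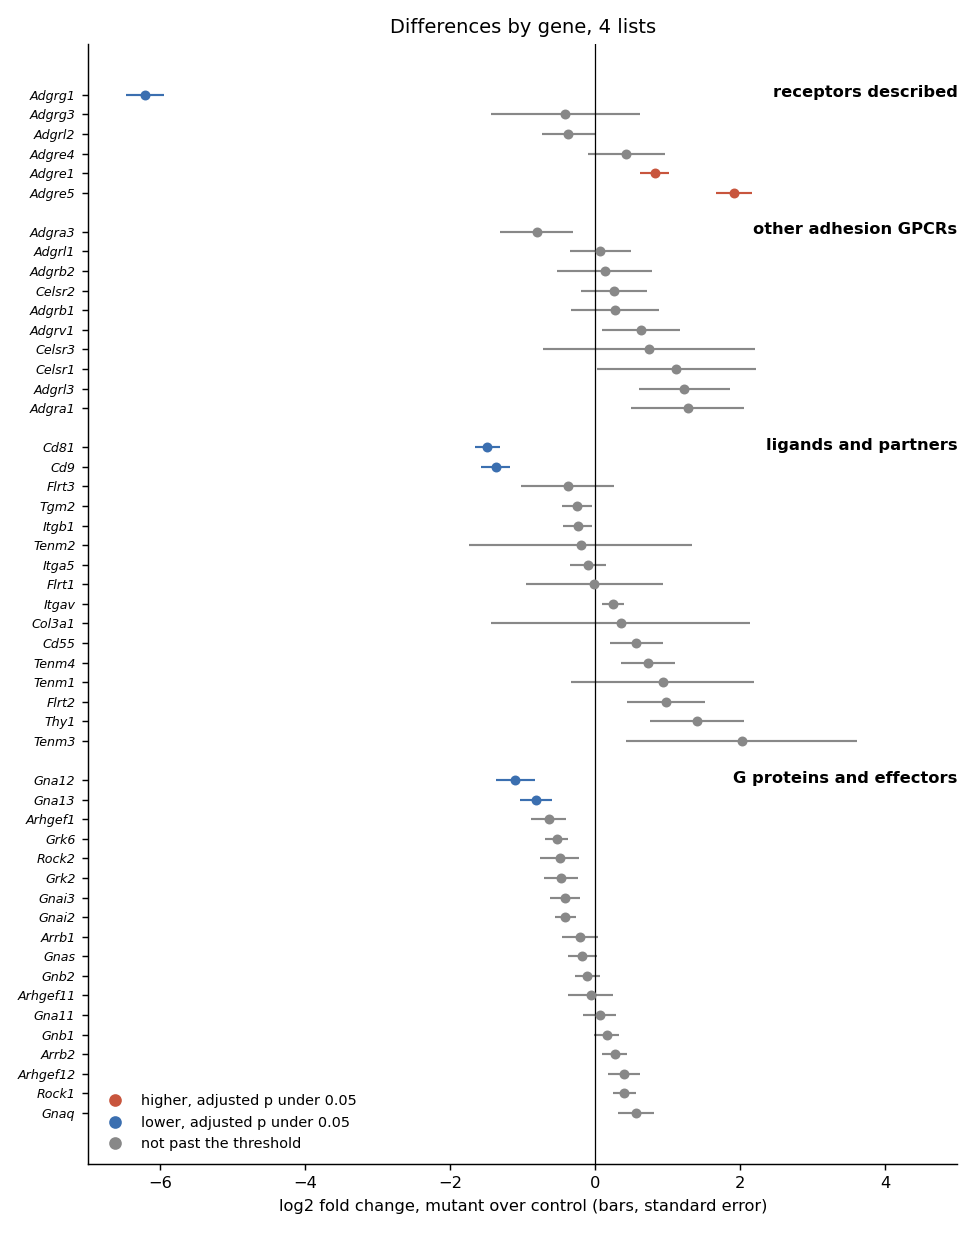
log2 fold change of mutants over controls with its SE for tested genes of 4 lists, coloured by the edgeR call (blue lower, red higher, grey not past the threshold). *Adgrg1* at -6.21 is the lowest value drawn, and *Cd81* at -1.49 is the next.

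For each receptor that passed the test, the 3 tested genes with the nearest pattern over the 8 libraries were found from log2 CPM with a prior count of 2, each gene centred on its own mean, as the root mean square difference (RMS, in log2 units). The median RMS over all genes tested is given for scale only, since the nearest genes lie below it by construction. Nearest to *Adgre5* were *St6galnac2*, *Isg15* and *Ehd1*, a sialyltransferase, a ubiquitin-like protein induced by interferon and a protein of endosome recycling, with RMS of 0.176, 0.181 and 0.185 against a median of 1.185 over all genes tested. Nearest to *Adgre1* were *H2-T23*, *Ifih1* and *Rab32*, a non-classical MHC class I gene, an RNA sensor and a small GTPase, with RMS of 0.120, 0.125 and 0.142 against a median of 0.755. Nearest to *Adgrg1* were *Olfm4*, *8030442B05Rik* and *Naalad2*, with RMS of 0.271, 0.429 and 0.481 against a median of 3.166. These 3 genes were low, at 3.8, 2.98 and 5.16 CPM on average in controls, and were not counted in any mutant, which puts them at least 45.2-fold, 35.4-fold and 61.3-fold lower (3 counts per library), and on this scale their falls depend on the prior count.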

How the data were processed

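RNA of sorted microglia from 4 *Smad2/3* mutant and 4 control mice was analysed, taken as 1 mouse per library from the labels, so p-values measure the spread between these libraries. Per the study's methods the authors used Rsubread with the mm10 genome for alignment and featureCounts for gene counts, and the deposited counts are raw. Tool versions and the annotation of that step are not given in the sources used here. A deposited table of DESeq2 (1.28 per the labels) fold changes and p-values by the authors was not used. Another deposit is named in the methods for these mutants, and labels alone tie the libraries to the experiment. The sources differ on library kit and read layout (NEBNext paired-end, Nextera XT single-end), which bears on levels between genes more than between mice.

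Of 55573 identifiers, 55480 matched GENCODE M21 (GRCm38). A gene was tested where 4 or more of the 8 libraries had 10 or more counts. The test was edgeR 4.0.16 in R 4.3.3 (TMM, estimateDisp, glmQLFit, glmQLFTest, Benjamini-Hochberg adjustment, threshold 0.05, no block). The SE of a log2 fold change was computed as its absolute value divided by the square root of the F statistic of that test. The biological coefficient of variation was 0.542, so spread between libraries rather than depth limited precision. Floors of 3 counts cover counting error only. The members and lists were chosen with earlier results of these data known. Named genes were the members, called genes of the lists (at most 6 per list), the 3 nearest in pattern to each called member, and the targeted and sex-linked genes, and markers were used as lists. *Ddx39*, the neighbours of *Adgrg1*, *Adgrb3*, single microglia and astrocyte markers, untested family genes and uncalled list genes were named after their values were seen. Items that enter counts of the lists but are given no values of their own are not reported here. Alternatives were DESeq2 1.42.0, RLE factors, library totals, no filter, a filter that all 8 libraries had to pass, a replicate block, and fits without 1 mouse on the genes tested with all 8. Ratios within libraries were added after seeing the data.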

Additional observations from a re-analysis of the deposited data

Results flagged for a closer look

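In the 14 groups of 4 mice examined (7 receptors in 2 genotypes), 2 held a library whose gap to its nearest neighbour, divided by the range of the group, was above Dixon's critical value for 4 samples, which chance gives in about 1 of 20 groups. For *Adgrl2*, control WT3 stood at 38.4 CPM, with a gap of 0.838 of the range above the other 3 controls at 14.7 to 18.5 CPM. Without it the log2 fold change of *Adgrl2* was 0.06 in place of -0.37. For *Adgrg3*, control WT4 stood at 2.45 CPM, with a gap of 0.915 of the range, while the other controls lay between 2 and 2.04 CPM, so the flag comes from how near these 3 lay to each other.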

How the results depend on the processing

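*Adgrg1* and *Adgre5* kept their direction and passed the test under DESeq2, RLE factors, library totals, both other filters, the block and each mouse left out. *Adgre1* lost its call without the filter on low counts (adjusted p = 0.0516), which left 1 receptor higher in place of 2, and the number higher was 1 to 2 over the fits that left out a mouse, whereas DESeq2, RLE factors, library totals and the stricter filter gave adjusted p-values of 0.00207, 0.0314, 0.00746 and 0.0208. Over the fits that left out a mouse, the log2 fold change ran from -0.07 to 0.73 for *Adgre4*, from -0.55 to 0.06 for *Adgrl2* and from -0.98 to 0.0044 for *Adgrg3*. The stricter filter dropped *Adgrg3*.

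Of the other family genes, 1 was lower by DESeq2. Of the G protein and effector genes, 5 were lower by DESeq2 (*Gnai2* and *Grk6* among them), 1 without the filter, 1 with the replicate block and 0 to 2 with a mouse left out, and library totals called 1 higher (*Rock1*), a scaling that moved the median log2 fold change of all genes by 0.117. Of the targeted genes 0 were lower without the filter and 0 to 1 with a mouse left out. Over all genes 878 were higher and 1607 lower, DESeq2 gave 2079 and 2659, and leaving out a mouse gave 525 to 1024 (525, 562 and 573 without WT2, WT3 and KO2) and 1005 to 1587 (1047 and 1005 without WT2 and WT3). The cause of these moves was not tested.

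Whether the replicate numbers of the labels pair the mice is not known here. Deviations from the group means of same-numbered libraries correlated at 0.166, 0.0183, 0.144 and 0.114. Of the 8 libraries, 6 correlated best with their own number. A link between same-numbered libraries is thus possible, and the main test used no block. With the replicate block the receptors gave 2 higher and 1 lower, all genes gave 886 higher and 1497 lower, and of the receptors, partner, pathway and targeted genes that passed the test only *Gna13* lost its call (adjusted p = 0.0629). The 2 ratios kept their direction without each mouse. For the receptors that did not pass, the spread between libraries was beyond counting error, apart from *Adgrg3* in controls (78, 77, 73 and 91 counts). Mice and library preparation cannot be told apart in that spread.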
